A study of Bos taurus with 8 samples.

Results

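Bicarbonate transporters and carbonic anhydrases were followed across 8 RNA sequencing libraries of bovine embryonic stem cells (bESCs), as 9 genes out of 32640 listed in the count table. They were 5 transporters of the SLC4 family (SLC4A2, SLC4A3, SLC4A4, SLC4A7 and SLC4A11) and 4 carbonic anhydrases (CA2, CA9, CA12 and CA14). The set was chosen by the low level of SLC4A4 in feeder-free conditions relative to MEF, and the other 8 genes were added by family. The values that compare the conditions are therefore given for these genes as a description, without P-values.

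The libraries came from 4 female (XX) lines, named A, C, D and E and derived from early or full blastocysts. Every line was sequenced once on MEF (irradiated mouse embryonic fibroblasts, a feeder layer) at passage 15 to 17 and once in feeder-free conditions on vitronectin (VTN) at passage 20 to 22. All cultures were kept in 5% O2 in NBFR medium, a serum-free medium with FGF2 and the WNT inhibitor IWR-1. The methods add Activin A for feeder-free culture only, whereas the sample titles carry the same medium name, NBFRA, in both conditions, so whether Activin A differed is not settled here. Feeders, matrix and passage changed with the condition and cannot be told apart, and all records carry the same batch.

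Cells that rely on glycolysis, as pluripotent stem cells do, release acid that has to leave the cytosol. Carbonic anhydrases interconvert carbon dioxide and bicarbonate with release of a proton, and most SLC4 proteins carry bicarbonate across the plasma membrane. Sodium/proton exchangers and monocarboxylate transporters move protons directly or with lactate. CA9 and CA12, enzymes of the outer cell surface, are known targets of the hypoxia-inducible factor HIF1.

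Total counts per library ranged from 44268717 to 54296425 on MEF and from 49671478 to 102351560 in feeder-free conditions, where line D had the deepest library. Values below are CPM, counts scaled to the library total, after TMM normalization for library composition, and 1 read corresponded to 0.00977 to 0.0240 CPM. Means are given with the SD over the 4 libraries of a condition. The pluripotency genes POU5F1, SOX2, NANOG, LIN28B, SALL4 and OTX2 summed to 3642 to 4259 CPM on MEF and 3151 to 3334 CPM in feeder-free conditions. All 6 had a log2 fold change below 0, where 7784 of the 15744 genes tested did. Their median was -0.35 and the lowest was -0.63. In the unpaired edgeR fit 0 were called (adjusted P-value below 0.05 and at least 1.5-fold). An unadjusted P-value under 0.05 was found for 5 of the 6, a larger share than the 3400 of the 15744 genes tested. The fit paired by line called 1 of the 6 lower, or 16.7%, against 10% of all genes called in either direction. Of 18 fibroblast markers, 16 passed the filter on low counts. Fold changes were positive for 8 of these and negative for 8, from -4.08 to 2.61 on the log2 scale, with a median of 0.01. Unpaired in edgeR 0 of the 16 were called, and in the fit paired by line 2 were called higher and 2 lower, or 25%, against 10% of all genes. The 18 markers summed to 622 to 725 CPM on MEF and 378 to 1413 CPM in feeder-free conditions. TWIST2 and FAP had 0 counts in all 4 feeder-free libraries. COL1A2, a fibroblast collagen gene, had 0.680 to 4.65 CPM on MEF and 0 to 0.414 CPM in feeder-free conditions, whereas COL3A1, another, had 0.181 to 1.57 and 1.44 to 10.5 CPM. The part of feeder cells in the results below was not tested. Trophoblast markers summed to 687 to 1237 CPM on MEF and 754 to 3030 CPM in feeder-free conditions, while CDX2, IFNT2 and PAG2 had 0 counts throughout. All 5 tested were above 0 in log2 fold change, with a median of 0.88, where 7960 of the 15744 genes tested were above 0. KRT8, KRT18 and TEAD4 were called higher in the fit paired by line, against 10% of all genes called in either direction. Unpaired, 0 of the 5 were called in edgeR (3 at an unadjusted P-value under 0.05) and 2 in DESeq2, which called 1211 of 15744 genes. In the test among lines described below, 4 of the 5 passed, against 11.8% of all genes. Hypoblast markers summed to 52.2 to 113 CPM on MEF and 129 to 240 CPM in feeder-free conditions, of which APOA1 made up 44.8 to 97.6 and 125 to 234 CPM. Of the 6 hypoblast markers, 3 passed the filter on low counts. APOA1 was called higher in the unpaired edgeR fit, where 1.73% of all genes were called. The other 2 tested, PDGFRA and FOXA2, had log2 fold changes of -0.68 and -0.93, and PDGFRA is also among the fibroblast markers.

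SLC4A4 (NBCe1) is a sodium bicarbonate cotransporter that carries net charge. In the ARS-UCD2.0 assembly it spans chromosome 6, positions 86449488 to 86813499, and overlaps no other annotated gene. On MEF it had 120 CPM in line A, 79.9 in line C, 86.3 in line D and 76.3 in line E. In feeder-free conditions the same lines had 32.2, 16.3, 6.14 and 10.01 CPM. Every feeder-free library lay below every library on MEF, and line A was highest in both conditions. The mean was 90.7 ± 20.1 CPM (SD, n = 4) on MEF against 16.2 ± 11.5 CPM (SD, n = 4) feeder-free, and the fitted log2 fold change was -2.49 (standard error 0.46), a 5.62-fold lower level. Within lines the log2 ratio of feeder-free to MEF was -1.90 in A, -2.29 in C, -3.81 in D and -2.93 in E. Of all genes tested, 21 had a lower fold change. As this is the measure that selected the set, nothing further is read from it. In bulk RNA, fewer cells with a transcript and less transcript per cell cannot be told apart.

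SLC4A7 (NBCn1), a sodium bicarbonate cotransporter that carries no net charge, was the other transporter whose conditions did not overlap (chromosome 22, 1752646 to 1876273). It had 62.4, 58.0, 57.1 and 67.3 CPM on MEF in lines A, C, D and E, and 44.8, 44.7, 38.6 and 34.4 CPM in feeder-free conditions. Its log2 fold change was -0.59 (standard error 0.12), and line E had the widest gap, with a log2 ratio of -0.97. This is a small difference compared with that of SLC4A4, although the spread among lines was small too.

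SLC4A2 (AE2) and SLC4A3 (AE3) exchange chloride for bicarbonate and so move bicarbonate the other way under usual gradients. SLC4A2 (chromosome 4, 113636353 to 113651449) had 23.9, 41.4, 35.3 and 25.9 CPM on MEF in lines A, C, D and E, and 31.7, 35.6, 53.0 and 46.5 CPM in feeder-free conditions. The conditions overlapped. SLC4A2 was higher in feeder-free conditions in lines A, D and E and lower in line C, and its log2 fold change was 0.40 (standard error 0.22). SLC4A3 (chromosome 2, 107548717 to 107563078) had 9.24 to 13.6 CPM on MEF and 7.74 to 14.3 CPM in feeder-free conditions, with a log2 fold change of 0.11 (standard error 0.22) and higher values in lines A and E only. A lncRNA gene overlaps the span of SLC4A3, and the strand setting of the counting is not given in the sources used here, so reads of the pair cannot be told apart. SLC4A11, a transporter of the same family known for proton or hydroxide movement (chromosome 13, 51975774 to 51986669), had 14 to 51 counts per library. Its CPM was 0.384 to 0.926 on MEF and 0.264 to 0.602 in feeder-free conditions, and the log2 ratio ran from -1.68 in line C to 0.60 in line A, a spread too wide at this depth to show a direction.

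**Figure D1:**
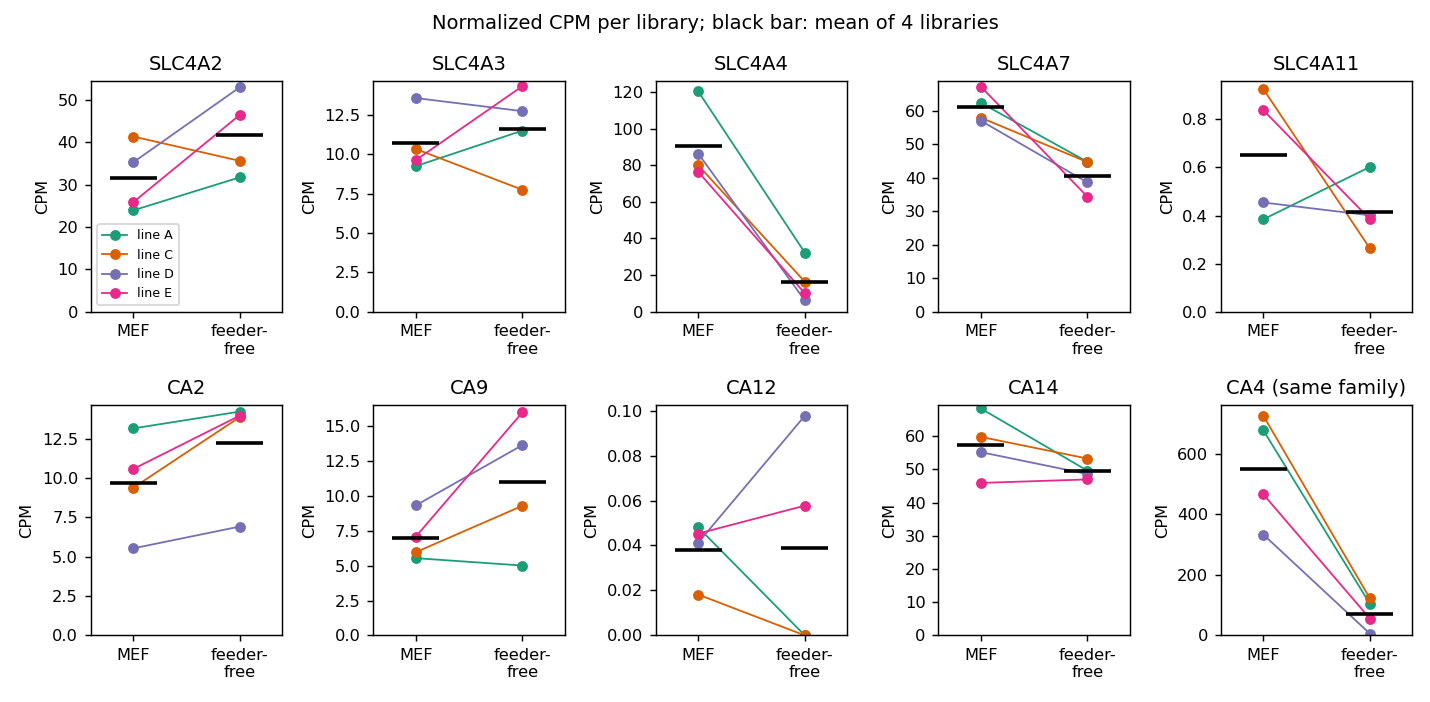
Normalized CPM (y axis, linear, from 0) of each gene in bESCs on MEF and in feeder-free conditions (x axis), with 1 point per library, a coloured line joining the libraries of one bESC line and a black bar at the mean of 4 libraries. CA4, a carbonic anhydrase outside the 9 genes, is added for comparison. SLC4A4 and CA4 are lower in feeder-free conditions in all 4 lines, SLC4A7 by a smaller step, and line D lies lowest for CA2 in both conditions.

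Of CA2, CA9 and CA14, the carbonic anhydrases of the set that were tested, none separated the conditions. CA14, a membrane-bound enzyme with its catalytic side outside the cell (chromosome 3, 20376449 to 20383625), had 68.4, 59.8, 55.2 and 45.9 CPM on MEF in lines A, C, D and E, and 49.6, 53.3, 48.6 and 47.0 CPM in feeder-free conditions. The feeder-free values lay within the range on MEF, and the log2 fold change was -0.21 (standard error 0.13). CA2, the abundant cytosolic enzyme of many tissues (chromosome 14, 76994568 to 77012210), had 13.2, 9.39, 5.53 and 10.6 CPM on MEF and 14.2, 13.9, 6.92 and 14.0 CPM in feeder-free conditions. Feeder-free values were higher in 4 of 4 lines, by log2 ratios of 0.11 to 0.56, but line D was low in both conditions, so the groups overlapped, and the log2 fold change was 0.34 (standard error 0.31).

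CA9 (chromosome 8, 59847734 to 59855519) had 5.55, 5.97, 9.33 and 7.09 CPM on MEF in lines A, C, D and E, and 5.02, 9.30, 13.7 and 16.01 CPM in feeder-free conditions. Feeder-free values were higher in lines C, D and E, with log2 ratios of 0.64, 0.55 and 1.17, and lower in line A, at -0.14. The fitted log2 fold change was 0.66 (standard error 0.34). A lncRNA gene overlaps its span as well. It was set beside 10 other HIF targets (VEGFA, ADM, ANKRD37, BNIP3, EGLN3, PDK1, SLC2A1, LDHA, NDRG1 and P4HA1). The log2 fold changes of the 10 had a median of -0.72, with 8 below 0 and 2 above 0. The highest was 0.43, below that of CA9. Unpaired in edgeR 0 of the 10 were called, and in the fit paired by line 3 were called lower, or 30%, against 10% of all genes. The difference between CA9 and these genes was not tested. CA12 (chromosome 10, 46649254 to 46714597) had 1 or 2 counts in each library on MEF, and 0, 0, 10 and 3 counts in feeder-free lines A, C, D and E. It did not pass the filter on low counts, its span overlaps APH1B, and no change can be given for it at this depth.

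Of the 9 genes, 8 were tested, and 2 (SLC4A4 and SLC4A7) met both thresholds of differential expression (adjusted P-value below 0.05 and at least 1.5-fold), both as lower, where 1.73% of all genes did. The groups of 4 libraries did not overlap for the same 2 genes, against 14.6% of all genes. With line as a paired term (replicate block), they were again the 2 that met the thresholds, against 10% of all genes. The median log2 fold change of the 8 genes was -0.05, with 4 above and 4 below 0, and that of all genes tested was 0.01. Since the set was selected on this contrast, these shares only describe it. The call of SLC4A7 rested on a fold change of 1.51, at the threshold, and was absent under 7 of 9 other settings of the analysis. It was kept in the paired fit and without a fold threshold. The unpaired call of SLC4A4 was lost when any of 7 libraries was left out and was kept without feeder-free line A. In those 7 fits the calls over all genes went from 272 to between 0 and 6, and without feeder-free line A to 490. The log2 fold change of SLC4A4 ran from -3.07 to -2.22, and in the paired fit it was called whichever line was left out. As the set was selected on SLC4A4, these fits describe its difference and are no further evidence of it.

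**Figure D2:**
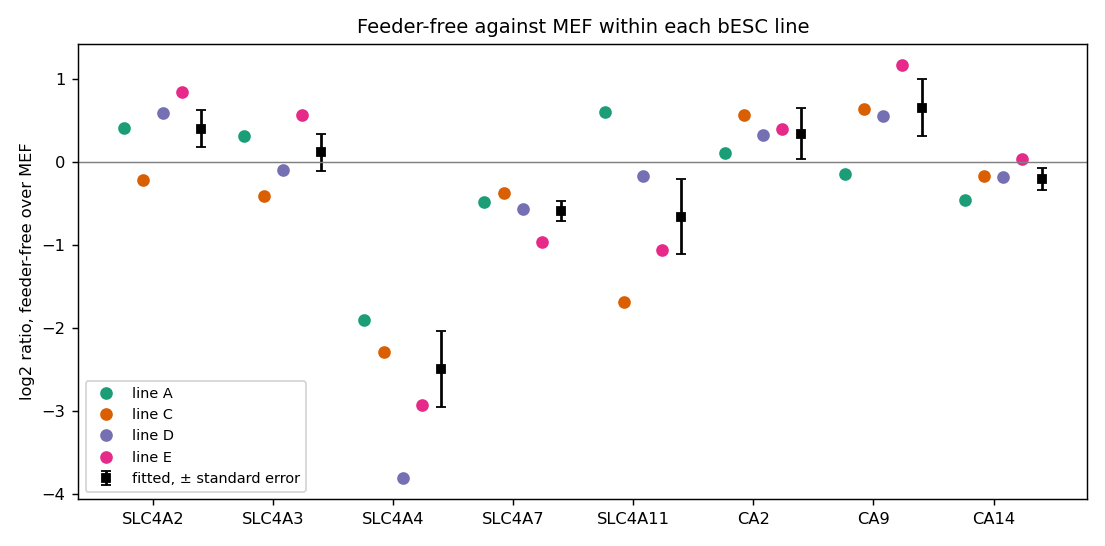
Log2 ratio of feeder-free to MEF (y axis) for the 8 genes that passed the filter on low counts (x axis), with 1 coloured point per bESC line and the fitted log2 fold change with its standard error as a black square. SLC4A4 lies between -1.90 and -3.81 in all 4 lines, SLC4A7 lies below 0 in all 4, and SLC4A2, SLC4A3, SLC4A11, CA9 and CA14 have lines on both sides of 0.

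Ratios of counts within a library describe the same SLC4A4 values without any scaling between libraries. They contain the gene the set was selected on, so they are no further evidence of its difference, and their size also depends on transcript length. There were 5.02, 1.93, 2.44 and 2.95 counts of SLC4A4 per count of the exchanger SLC4A2 on MEF in lines A, C, D and E, and 1.02, 0.459, 0.116 and 0.215 in feeder-free conditions. Per count of the other cotransporter, SLC4A7, there were 1.14 to 1.93 counts of SLC4A4 on MEF and 0.159 to 0.720 in feeder-free conditions.

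**Figure D3:**
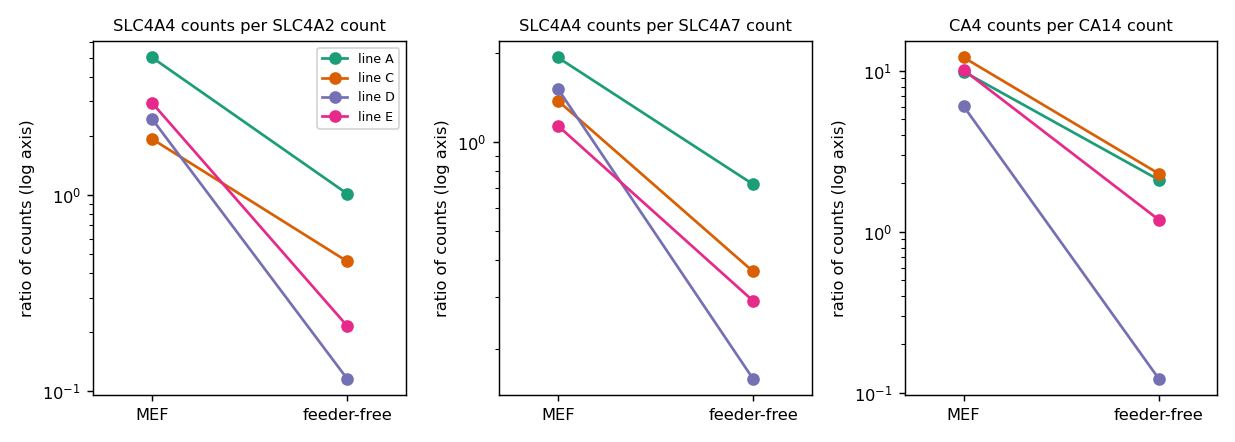
Ratios of raw counts within a library (y axis, logarithmic) on MEF and in feeder-free conditions (x axis), with 1 point per library and a line joining the libraries of one bESC line. SLC4A4 per SLC4A2, SLC4A4 per SLC4A7 and CA4 per CA14 are lower in feeder-free conditions in all 4 lines, and line D ends lowest in all 3 panels.

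Differences among lines were examined as a measure that the choice of genes had not used, with the 2 libraries of a line as its replicates and condition as a term. CA2 was the 1 gene of the 8 to pass (edgeR quasi-likelihood F test, adjusted p = 0.0289), where 11.8% of all genes passed. Line D averaged 6.23 CPM of CA2 over its pair of libraries, against 11.6 in line C, 12.3 in line E and 13.7 in line A, and was lowest in both conditions. Lines A, C and E overlapped each other. SLC4A4 averaged 76.2 CPM in line A and 43.2 to 48.1 CPM in the others (edgeR, adjusted p = 0.0772). CA9 averaged 5.28 CPM in line A, 7.64 in line C, 11.5 in line D and 11.6 in line E (edgeR, adjusted p = 0.102). For the other 5 genes the adjusted p was 0.253 to 0.968.

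The other genes of bicarbonate, proton and lactate transport were taken by family, as 108 genes in 9 lists, of which 78 were tested. In the unpaired fit 2 of the 78 passed, or 2.56%, against the 1.73% of all genes given above. SLC16A7 (MCT2), a lactate and pyruvate transporter on chromosome 5 from 53692033 to 53892931, rose from 2.26, 2.60, 4.85 and 2.54 CPM on MEF in lines A, C, D and E to 8.01, 8.78, 21.1 and 9.47 CPM in feeder-free conditions. The fitted difference was 1.95 on the log2 scale, with a standard error of 0.39 (edgeR, adjusted p = 0.0426). A second protein-coding gene, LOC512953, overlaps its span. SLC16A7 was higher in 4 of 4 lines and passed in the paired fit. In the unpaired fit, its call was lost when any of 7 libraries was left out and was kept without feeder-free line A, in the same fits in which calls over all genes fell to between 0 and 6. Its log2 fold change stayed between 1.51 and 2.27. Limma-voom did not call it.

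CA4, a carbonic anhydrase tethered to the outer membrane by a lipid anchor, showed the widest difference of the 78 genes. It is on chromosome 19 from 12804065 to 12811833, with no overlapping gene. It had 677, 726, 333 and 466 CPM on MEF in lines A, C, D and E, and 105, 123, 5.94 and 55.8 CPM in feeder-free conditions. No feeder-free library reached the lowest value on MEF, and line D was lowest in both conditions. The fitted difference of -2.93 on the log2 scale, with a standard error of 0.73, did not pass unpaired (edgeR, adjusted p = 0.0633). With the replicate block it was -3.43, with a standard error of 0.47 (edgeR, adjusted p = 0.00271), and it passed whichever line was left out. In counts per count of CA14, CA4 went from 6.03 to 12.1 on MEF to 0.122 to 2.30 in feeder-free conditions. CA4 and SLC4A4 thus both had their lowest feeder-free value in line D, followed by line E, whereas line A was highest for SLC4A4 and line C for CA4.

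**Figure D4:**
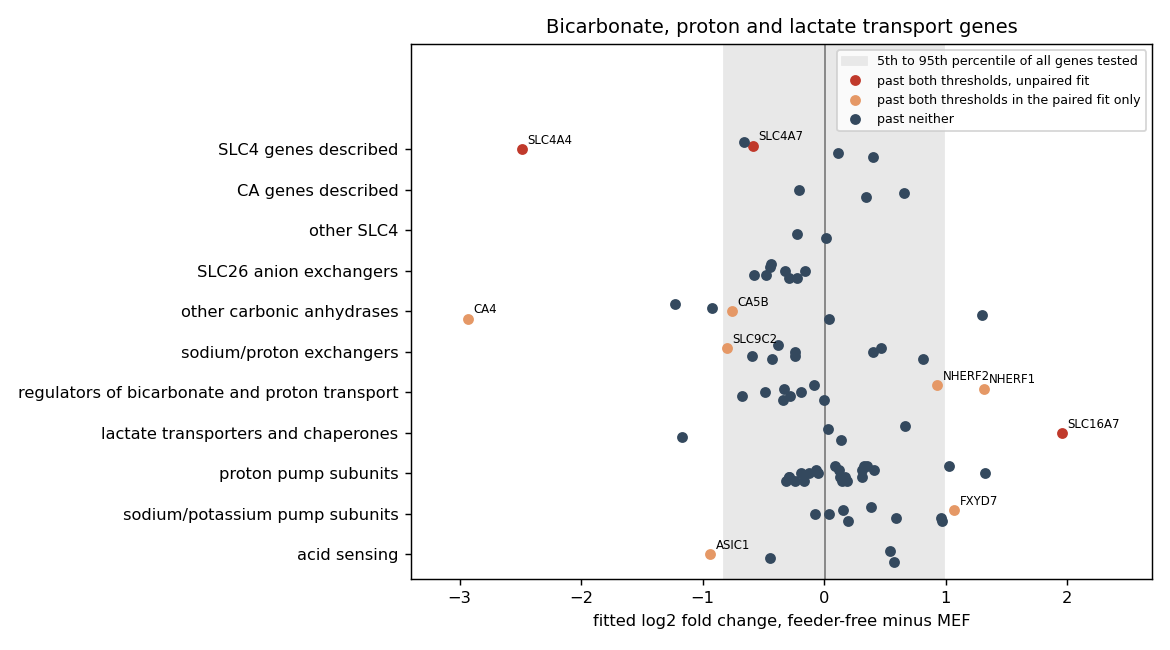
Fitted log2 fold change of feeder-free minus MEF (x axis) for tested genes of each family (y axis), with 1 point per gene, coloured by whether it passed both thresholds in the unpaired fit, in the paired fit only, or in neither. The grey band spans the 5th to 95th percentile of all genes tested and the grey line their median of 0.01. CA4, at -2.93, and SLC4A4, at -2.49, lie farthest to the left, and SLC16A7, at 1.95, farthest to the right.

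With the pairing, 9 of the 78 genes passed, or 11.5%, close to the 10% of all genes. Beside CA4 and SLC16A7, they included CA5B, SLC9C2 and ASIC1, which were lower, and NHERF1, NHERF2 and FXYD7, which were higher. These 6 were picked for naming after their values were seen. CA5B, a mitochondrial carbonic anhydrase, had 25.3 to 42.7 CPM on MEF and 17.4 to 20.2 CPM in feeder-free conditions, and its paired difference was -0.74 on the log2 scale, with a standard error of 0.15 (edgeR, adjusted p = 0.0127). NHERF1 and NHERF2, scaffold proteins that bind membrane transporters including a sodium/proton exchanger, had paired log2 fold changes of 1.29 (standard error 0.18) and 0.96 (standard error 0.23), both higher in 4 of 4 lines. NHERF1 had 19.6 to 41.6 CPM on MEF and 44.0 to 113 CPM in feeder-free conditions. They were the 2 genes above 0 among the 10 regulators of bicarbonate and proton transport tested. The other 8 had an unpaired log2 fold change below 0, and the median of the list was -0.24. WNK1, a kinase that regulates ion transporters, had a paired log2 fold change of -0.48, below the fold threshold. BSG, the chaperone of lactate transporters, had a mean of 488 ± 59.7 CPM on MEF against 499 ± 102 CPM feeder-free.

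By family, 0 of 8 SLC26 anion exchangers passed in edgeR's unpaired or paired fit, in DESeq2 or in limma-voom, while 1, SLC26A2, had an unadjusted P-value under 0.05, as did 3400 of the 15744 genes tested. All 8 had a log2 fold change below 0, with a median of -0.38, where 7784 of the 15744 genes tested were below 0. SLC26A2, SLC26A6 and SLC26A11 were lower in 4 of 4 lines, while each of the others was higher in 1 or 2 lines. SLC26A6, the one with the most counts, had a mean of 40.8 ± 2.75 CPM on MEF against 36.6 ± 2.10 CPM feeder-free. Of the remaining SLC4 genes, SLC4A5 and SLC4A8 were tested. SLC4A8, a sodium-driven chloride/bicarbonate exchanger, had a mean of 11.8 ± 2.34 CPM on MEF against 10.1 ± 1.39 CPM feeder-free. Neither gene passed in any of those fits or had an unadjusted P-value under 0.05. Outside the set, 6 genes of the carbonic anhydrase family were tested, CA4 and CA5B included. Of these, 4 had a log2 fold change below 0 and 2 above, with a median of -0.84. That median rests partly on genes with few counts. CA5A, CA6 and CA10 had condition means of 0.220 to 1.82 CPM, and standard errors of 0.48 to 1.07 on the log2 scale. Unpaired in edgeR and in limma-voom 0 of the 6 passed, while CA4 and CA5B passed in the paired fit and in DESeq2. Of 22 proton pump subunits, 0 passed in any of those fits, 1 had an unadjusted P-value under 0.05, and the median was 0.12. ATP6V1A, the pump subunit with the most counts, had a mean of 211 ± 30.6 CPM on MEF against 170 ± 26.4 CPM feeder-free. Among acid sensors, GPR4 had a mean of 12.1 ± 3.17 CPM on MEF against 18.1 ± 3.10 CPM feeder-free, and its difference of 0.57 on the log2 scale (standard error 0.22) did not pass. The groups did not overlap for 17 of the 78 genes, or 21.8%, against the 14.6% of all genes. In the test among lines 10 of the 78 passed, or 12.8%, close to the 11.8% of all genes.

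The 5 genes whose log2 CPM followed SLC4A4 most closely over the 8 libraries were ZCCHC14, PXMP4, RBBP4, GMEB1 and ZNF516, with Pearson's r of 0.985 to 0.992. In all, 326 genes had an r above 0.9. These correlations describe 8 libraries that fall into 2 conditions, so a difference between conditions that is wide beside the spread within them can give a high r. The difference itself can be large or small, at -1.32 on the log2 scale for ZNF516 and -0.21 for RBBP4. ZNF516, for example, had 92.9 to 120 CPM on MEF and 22.9 to 61.3 CPM in feeder-free conditions, whereas RBBP4 had 401 to 413 and 337 to 368 CPM.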

How the data were processed

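The values deposited by the authors are raw gene counts in 8 libraries. According to the methods, trimming used Trimmomatic and STAR aligned the reads to ARS-UCD2.0. They were cleared of optical duplicates (Picard) and of poorly mapped reads (samtools), and counted with featureCounts (Subread 1.6.2 in the submitters' processing notes). The methods also describe the removal from MEF cultures of reads of a pure MEF sample, which was not analysed here.

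Of 32640 genes, 3 without values were left out, and 0 columns were unused. The conditions were compared in edgeR 4.0.16 (R 4.3.3), using filterByExpr, TMM, glmQLFit and glmQLFTest without a line term. P-values of 15744 genes were adjusted by Benjamini-Hochberg. Standard errors were derived from the log2 fold change and its F statistic, and log2 CPM used a prior count of 2. Line differences were tested with 3 degrees of freedom in a fit with condition and line. The libraries of a line came from the same cell line and were therefore paired in a second fit (replicate block). Deviations from the condition mean correlated at 0.421 to 0.664 within lines. No libraries were duplicates (chi-square per degree of freedom of at least 40.8). Positions are RefSeq spans in ARS-UCD2.0, matched by symbol for 164 of 164 listed genes.

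The genes and lists were chosen with earlier results of these data known. Named genes were the 9 genes, every listed gene past both thresholds, the gene with the most counts in each list, and the 5 genes most correlated with SLC4A4. Some genes that the rule names are not reported here, though counts over the lists include them. Any gene outside the rule was named after its values had been seen. Settings varied were the scaling (RLE or none), the filter, the tool (DESeq2 1.42.0, limma-voom in limma 3.58.1), the pairing, no fold threshold, and each library left out. Leaving lines out of the paired fit and thinning the deepest library were added after seeing the data. The fits were tested on simulated data first. Transcript lengths were not used, so levels were not compared between genes.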

Additional observations from a re-analysis of the deposited data

Results flagged for a closer look

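The levels of 10 genes (the 9 genes and SLC16A7) were examined in each condition, as groups of 4 libraries, for a library far from the other three. One was found in 1 group of 20, and chance flags about 1 in 20 groups. For CA2, feeder-free line D had 2.80 log2 CPM, against 3.80 to 3.83 in the other feeder-free lines, and line D was also lowest on MEF.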

How the results depend on the processing

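Of the 9 genes, 2 met both thresholds. The count was 1 with RLE size factors, no scaling, no filter, a minimum of 10 counts in every library, DESeq2, limma-voom, and the deepest library thinned to the median total of the other feeder-free libraries. In each of these SLC4A4 was the gene that passed. The count was 0 to 2 with single libraries left out, when calls over all genes were 0 to 490. With lines left out under the replicate block it was 1 to 3, when calls over all genes were 742 to 1651. CA9 also passed there without line A, the line in which its log2 ratio was below 0, at -0.14. That fit called 1651 of 15764 genes. Of the other transport genes, 2 passed, against 4 with the minimum of 10 counts, 9 with DESeq2, 1 with limma-voom and 9 with the replicate block. Calls over all genes were 272, and 412, 1211, 229 and 1582 in the same order. With single libraries left out 0 to 3 passed, and with lines left out of the paired fit 6 to 9. The count of genes that differed among lines was 1, and 3 (SLC4A4, CA2 and CA9) without a filter and with DESeq2's likelihood ratio test, which passed 3379 of 23262 and 3888 of 15744 genes. The cause of these shifts was not tested. Of the 8 genes tested, 7 kept the sign of their log2 fold change under all 20 alternatives, and SLC4A3 changed sign once, at -0.05 in the paired fit without line E. With all lines kept, the replicate block changed no call among the 9 genes. At 0 to 10 counts per library, depth limits CA12.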
